A study of Arabidopsis thaliana with 8 samples.

Results

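Chlorophyll is made in plastids by a chain of nuclear-encoded enzymes, and 10 of their genes were followed here in roots of Arabidopsis thaliana. They were HEMA1, GUN4, GUN5, CHLI1, CHLM, CRD1, PORA, PORB, PORC and CAO. Members were chosen by locus code: every deposited transcript whose name before the dot is one of these 10 loci was included, which gave 23 of 48332 transcripts and 10 of 27628 genes. All 10 genes were found, and all passed the filter on low counts, each with at least 10 estimated counts in all 8 libraries. Polyadenylated RNA was sequenced from 4 groups with 2 libraries each. The groups were hy5 mutant roots with benzyladenine (hy5 BA), hy5 mutant roots in control medium (hy5 Control), wild-type roots with benzyladenine (WT BA) and wild-type roots in control medium (WT Control). Benzyladenine (BA) is a synthetic cytokinin, a class of plant hormone, and was given at 0.1 uM. HY5 is a bZIP protein that activates genes in light. Plants of every group were 1 week old and had grown upright on solid Murashige and Skoog medium at 0.5x strength, and the root was cut from the shoot with a blade before it was placed in liquid medium with or without BA. All groups are therefore detached roots. The sources used here do not give the hy5 allele, the light conditions or the length of the BA treatment. Nor do the labels say whether replicate libraries came from separate cultures, so the spread behind each p-value is that between these libraries and may be technical.

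The pathway starts from glutamyl-tRNA. HEMA1 encodes a glutamyl-tRNA reductase, the first committed and rate-limiting step of 5-aminolevulinic acid synthesis, which feeds chlorophyll as well as heme. After protoporphyrin IX the route divides: magnesium chelatase inserts magnesium and commits the molecule to chlorophyll, while ferrochelatase inserts iron and leads to heme. GUN5 encodes the CHLH subunit and CHLI1 the main CHLI subunit of magnesium chelatase, and GUN4 binds porphyrins and stimulates that enzyme. CHLM methylates magnesium protoporphyrin, CRD1 (also called CHL27) is a subunit of the cyclase that closes the isocyclic ring, and the protochlorophyllide oxidoreductases PORA, PORB and PORC carry out the light-dependent reduction to chlorophyllide. CAO oxidises chlorophyllide a on the way to chlorophyll b. PORA is known as the form of etiolated seedlings whose transcript declines in light, while PORB persists in green tissue and PORC is induced by light. Roots hold mostly non-green plastids but can turn green in light, and both HY5 and cytokinin are known to promote that greening. In bulk tissue, fewer cells of a type and less RNA per cell cannot be told apart.

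Library totals lay between 29928501 and 35289411 estimated counts. HY5 itself had 1.02 to 2.50 TPM (the deposited level, corrected for transcript length) in the 4 hy5 libraries and 38.8 to 42.1 TPM in the 4 WT libraries. The 11 root markers were all above 0 in every library. CASP1, of the endodermal Casparian strip, had 345 to 383 TPM in hy5 and 312 to 365 TPM in WT, and the other 10 together had 105 to 123 TPM in hy5 and 95.04 to 111 TPM in WT. In hy5 Control 4 of the 11 were called higher than in WT Control and none lower (PLT2, CASP1, SMB and TMO5, with log2 folds of 0.30 to 0.58), and with BA TMO5 was called higher, at 0.48 ± 0.08, and COBL9, a root hair gene, lower, at -0.45 ± 0.14. The share of root markers called was 36.4% in control medium and 18.2% with BA, beside 25.1 and 23.5% of all genes tested. The 9 markers of shoot meristem, leaf and stomata summed to 1.44 and 1.63 TPM in hy5 BA against 1.11 and 0.96 TPM in WT BA, and to 1.11 and 1.18 TPM in hy5 Control against 1.04 and 1.08 TPM in WT Control. Of these 9, 1 to 2 were at 0 in each hy5 library and 2 to 4 in each WT library. Only TMM, of the stomatal lineage, passed the filter; it was called higher in hy5 BA than in WT BA, at 0.85 ± 0.26 (adjusted p = 0.0274), and was not called in control medium (-0.04). The part of these marker differences in the results below was not tested. In 2 libraries, hy5 Control 1 and hy5 BA 2, 21.6 and 23.5% of transcripts had a count that missed a whole number by less than 0.001, compared with 1.34 to 1.53% in the others. Results were therefore also computed without these libraries.

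In WT roots the 10 genes spanned a wide range of transcript levels. HEMA1 was highest, with 55.4 and 55.4 TPM in WT BA and 53.3 and 55.8 TPM in WT Control, and PORC was lowest, with 0.752 and 0.821 TPM in WT BA and 0.919 and 0.999 TPM in WT Control. In WT Control the order by mean TPM was HEMA1, CHLM, CRD1, GUN5, CHLI1, PORB, CAO, PORA, GUN4 and PORC. GUN5 could not be separated from CHLI1 in this order, nor CHLI1 from PORB, because their libraries overlapped; all other neighbours were apart. In hy5 Control the order was HEMA1, CHLM, CHLI1, PORA, CRD1, PORB, CAO, GUN4, GUN5 and PORC. There the libraries overlapped between PORB and CAO, between GUN4 and GUN5, and between GUN5 and PORC. GUN5 thus ranked 9 of 10 in hy5 Control and 4 of 10 in WT Control, and CRD1 ranked 5 in hy5 Control and 3 in WT Control. The levels of all 10 genes summed to 72.9 to 77.2 TPM in the 4 hy5 libraries and 116 to 129 TPM in the 4 WT libraries, with no overlap. HEMA1 made up most of this sum in hy5.

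**Figure D1:**
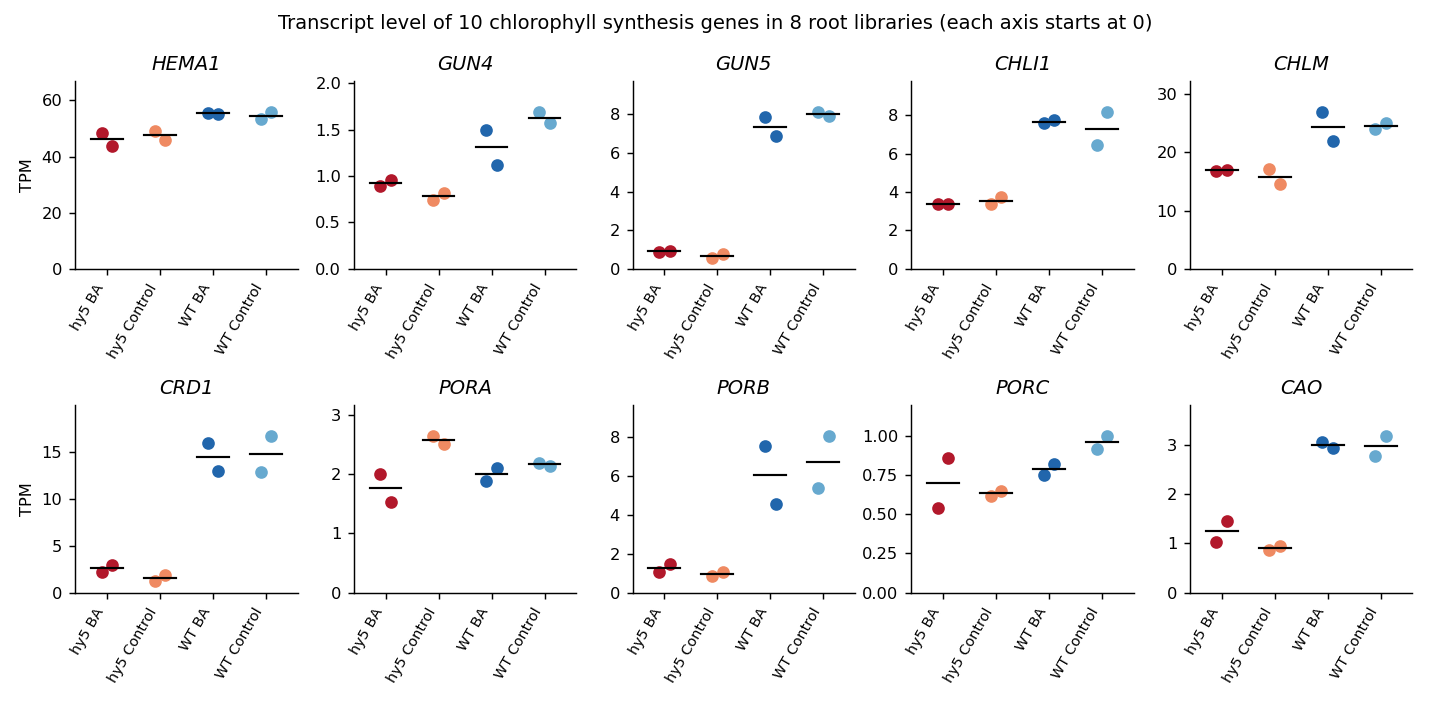
Transcript level in TPM (vertical axes, each starting at 0) of the 10 chlorophyll synthesis genes in each library (points) of the 4 groups, with the group mean as a bar. GUN5, CRD1, PORB and CAO lie far lower in hy5 than in WT in both media, while PORA does not. The PORA levels of the hy5 Control libraries, at 2.64 and 2.50 TPM, are the highest of the 8. That of hy5 BA 2, at 1.53 TPM, is the lowest.

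The first comparison asked what the loss of HY5 changes in control medium. Of the 10 chlorophyll genes, 7 were lower and none was higher in hy5 Control, set against WT Control, by edgeR's quasi-likelihood test at a Benjamini-Hochberg adjusted p under 0.05. Among all 22682 genes tested, 25.1% were called, 11.4% as lower and 13.7% as higher. With library size as the only scaling, the split over all genes was 2303 higher and 4263 lower, compared with 3103 higher and 2593 lower. The median log2 fold of the 10 genes was -0.99, beside -0.001 over all genes tested. The libraries of the genotypes did not overlap for any of the 10 in CPM (counts scaled to library size with edgeR's TMM factors). In both hy5 libraries 9 genes were lower and PORA was higher. Of all genes, 31.5% lay wholly lower and 31.5% wholly higher. The fitted folds that follow are on the scale of scaled counts, and each ± is a standard error (n = 2 libraries a group).

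At the first committed step, HEMA1 (AT1G58290, TAIR10.1 chromosome 1, 21623700 to 21626402, minus strand) had 49.1 and 46.1 TPM in hy5 Control and 53.3 and 55.8 TPM in WT Control. Its log2 fold was -0.14 ± 0.07 with an adjusted p of 0.159, so the entry enzyme was not called in this medium. With library size as the only scaling it was called, at -0.23 and an adjusted p of 0.0163.

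The magnesium chelatase genes behaved unequally in size. GUN5 (AT5G13630, chromosome 5, 4387307 to 4392429, minus strand) showed the strongest fall of all 10 genes. It had 0.565 and 0.789 TPM in hy5 Control against 8.10 and 7.93 TPM in WT Control, a log2 fold of -3.51 ± 0.12 (adjusted p = 6.3e-12), or 11.4-fold lower. CHLI1 (AT4G18480, chromosome 4, 10201672 to 10203469, minus strand) had 3.37 and 3.72 TPM in hy5 Control against 6.46 and 8.16 TPM in WT Control. That was a fall of -0.99 ± 0.13 on the log2 scale (adjusted p = 2.48e-05), a smaller fold than that of GUN5 although both encode subunits of the same enzyme. The chelatase activator GUN4 (AT3G59400, chromosome 3, 21948501 to 21949796, minus strand) had 0.745 and 0.815 TPM in hy5 Control against 1.69 and 1.57 TPM in WT Control. Its log2 fold was -0.99 ± 0.24 with an adjusted p of 0.00638. This call was the least secure of the 7: the adjusted p was 0.0771 in DESeq2, 0.0517 without WT Control 1, 0.0562 without hy5 Control 1 and 0.0726 without both libraries with near-whole counts. GUN4 also overlaps the gene AT3G59410 on the other strand by 946 bases, and 72.35% of its 31-base words occur there. Whether the libraries keep strand is not stated, so reads from that stretch cannot be assigned with certainty; AT3G59410 itself had a log2 fold of -0.11 ± 0.09 (adjusted p = 0.366).

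Of the next steps, CHLM fell modestly and CRD1 fell strongly. CHLM (AT4G25080, chromosome 4, 12876822 to 12878703, plus strand), the methyltransferase, had 17.1 and 14.5 TPM in hy5 Control against 24.0 and 25.0 TPM in WT Control. Its log2 fold was -0.60 ± 0.09 (adjusted p = 0.000103). CRD1 (AT3G56940, chromosome 3, 21076505 to 21078443, plus strand), the cyclase subunit, had 1.18 and 1.83 TPM in hy5 Control against 12.8 and 16.6 TPM in WT Control. That is 9.37-fold lower, a log2 fold of -3.23 ± 0.20 (adjusted p = 1.35e-07), and it was the second strongest fall of the 10. CRD1 overlaps 2 genes on the other strand by 406 bases in all, and 7.84% of its 31-base words occur on that strand. CHLI1, PORB, CHLM and CAO also overlap a gene on the other strand. The share of their 31-base words found on that strand was 5.45, 2.5, 0.39 and 0.26%, in that order. The doubt over strand given for GUN4 applies to these stretches too.

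The 3 oxidoreductase genes did not move together. PORB (AT4G27440, chromosome 4, 13725546 to 13727440, plus strand) had 0.843 and 1.06 TPM in hy5 Control against 5.39 and 8.07 TPM in WT Control. It fell 6.74-fold, a log2 fold of -2.75 ± 0.27 (adjusted p = 2.04e-05). PORA (AT5G54190, chromosome 5, 21990864 to 21992814, minus strand), its close paralog, had 2.64 and 2.50 TPM in hy5 Control against 2.20 and 2.14 TPM in WT Control. Its log2 fold was 0.29 ± 0.17, with a 95% interval from -0.07 to 0.65, and it was not called (adjusted p = 0.233). PORC (AT1G03630, chromosome 1, 907523 to 909650, plus strand) had 0.616 and 0.651 TPM in hy5 Control against 0.919 and 0.999 TPM in WT Control. At -0.52 ± 0.28 it was not called either (adjusted p = 0.190), and its interval from -1.11 to 0.06 leaves room for a fall of the size seen in CHLI1. PORC overlaps AT1G03620 on the other strand by 121 bases, but 0.0% of the 31-base words of its transcripts occur on the other strand of any gene.

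CAO (AT1G44446, chromosome 1, 16848308 to 16851271, minus strand) acts on the way to chlorophyll b. It had 0.863 and 0.937 TPM in hy5 Control against 2.78 and 3.18 TPM in WT Control. It was 3.17-fold lower, with a log2 fold of -1.66 ± 0.18 (adjusted p = 3.16e-06). For GUN5, CRD1, PORB, CAO, CHLI1 and CHLM the call held in DESeq2, in limma on TPM and in each of 8 runs that left out 1 library.

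**Figure D2:**
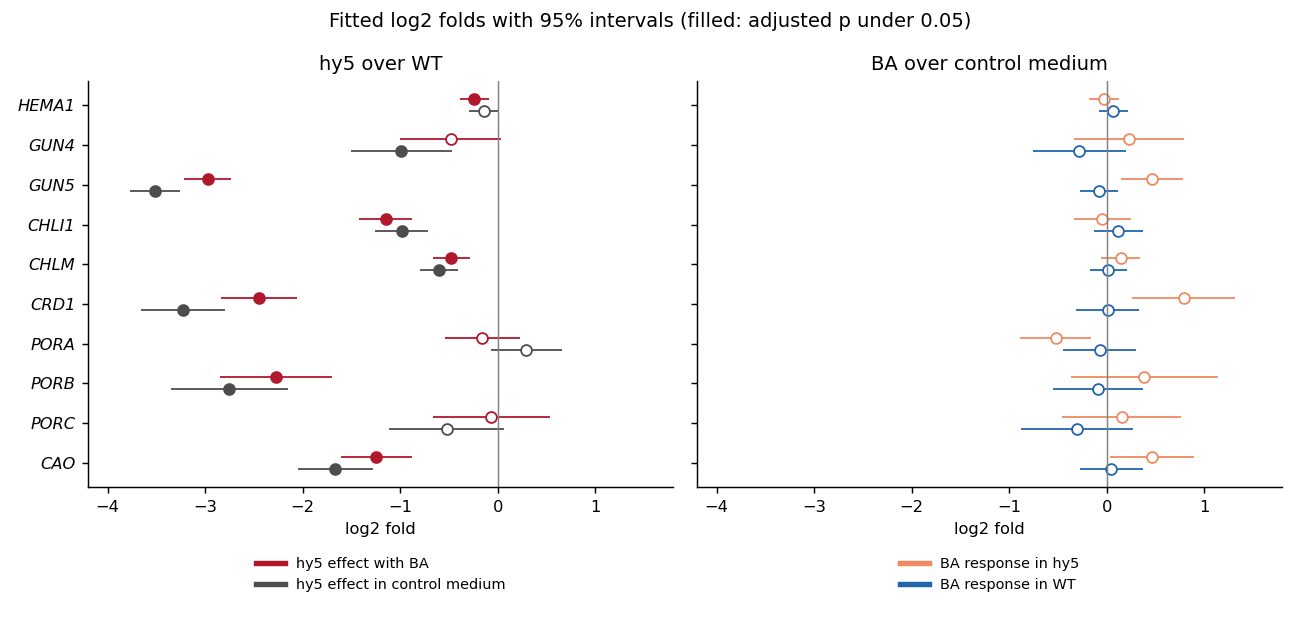
Fitted log2 folds (horizontal axis) with 95% intervals for the 10 genes, hy5 over WT on the left and BA over control medium on the right; filled points had an adjusted p under 0.05. On the left 7 genes are filled in each medium, with GUN5 farthest from 0 at -3.51 in control medium and -2.97 with BA, and on the right no point is filled.

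HY5 is known to bind DNA elements with an ACGT core, among them the G-box CACGTG. The 100 bases upstream of the annotated gene start are shown for the 4 genes with the strongest fall and, for contrast, for PORA. They read 5′ to 3′ toward the gene on its own strand, from RefSeq's TAIR10.1 genome, with CACGTG and any other ACGT in capitals.
GUN5 (chr5:4392430-4392529, minus strand): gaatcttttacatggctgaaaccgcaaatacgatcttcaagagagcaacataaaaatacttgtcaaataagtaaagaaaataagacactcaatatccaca
CRD1 (chr3:21076405-21076504, plus strand): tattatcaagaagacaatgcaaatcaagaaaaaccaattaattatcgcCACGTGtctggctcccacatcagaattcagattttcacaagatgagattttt
PORB (chr4:13725446-13725545, plus strand): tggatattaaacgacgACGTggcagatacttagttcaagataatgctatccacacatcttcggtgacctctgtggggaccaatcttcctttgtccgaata
CAO (chr1:16851272-16851371, minus strand): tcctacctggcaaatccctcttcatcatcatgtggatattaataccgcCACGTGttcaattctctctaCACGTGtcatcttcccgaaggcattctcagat
PORA (chr5:21992815-21992914, minus strand): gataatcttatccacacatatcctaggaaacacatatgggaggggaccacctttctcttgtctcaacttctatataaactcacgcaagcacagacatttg
CAO held CACGTG at 2 places, starting 52 and 32 bases before the gene start, and CRD1 held it once, starting 52 bases before. PORB held an ACGT starting 84 bases before the gene start, and the windows of GUN5 and PORA held neither motif. Over a longer window of 300 bases, both strands searched, CACGTG was present upstream of 2 of the 10 genes and of 7.1% of 27443 annotated genes. ACGT, which also counts the copies inside CACGTG, was present upstream of 5 of the 10 (GUN4, CHLI1, CRD1, PORB and CAO) and of 49.0% of genes. The windows of 300 bases of GUN4, CHLI1, CHLM, CRD1, PORB and PORC run into another annotated gene. The CCAAT-box sequence CCAATC, searched in the same way, was present upstream of GUN4 and PORB and of 12.2% of genes. Strong and weak falls occurred both with and without these letters in the window. GUN5, with the strongest fall, had none of them in 300 bases. A relation between these letters and the falls was not tested. These matches describe the sequence only and say nothing about binding.

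The second comparison set the genotypes side by side in BA medium, with libraries that are not part of the first. Both comparisons came from the same fit and shared its estimate of the spread, so they are not fully independent. Again 7 of the 10 genes were lower in hy5 BA than in WT BA and none was higher, where 23.5% of all genes tested were called, 12.4% as lower and 11% as higher. The median log2 fold was -0.82, beside 0.01 over all genes. The libraries of 8 genes lay wholly lower in hy5 BA, compared with 29.5% of all genes.

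GUN5 had 0.885 and 0.949 TPM in hy5 BA against 7.85 and 6.87 TPM in WT BA, a log2 fold of -2.97 ± 0.11 (adjusted p = 2.6e-11). CRD1 had 2.21 and 2.94 TPM in hy5 BA against 15.9 and 13.0 TPM in WT BA, a log2 fold of -2.45 ± 0.18 (adjusted p = 9.84e-07). PORB had 1.08 and 1.49 TPM in hy5 BA against 7.55 and 4.56 TPM in WT BA, a log2 fold of -2.28 ± 0.26 (adjusted p = 8.13e-05). These were the 3 strongest falls, in the same order as in control medium. CAO followed with 1.03 and 1.45 TPM in hy5 BA against 3.06 and 2.94 TPM in WT BA, a log2 fold of -1.24 ± 0.17 (adjusted p = 4.69e-05). CHLI1 had 3.40 and 3.40 TPM in hy5 BA against 7.59 and 7.77 TPM in WT BA, a fall of -1.15 ± 0.13 (adjusted p = 5.87e-06). For CHLM the values were 16.8 and 17.0 TPM in hy5 BA against 26.8 and 21.9 TPM in WT BA, with a log2 fold of -0.48 ± 0.09 (adjusted p = 0.000958). All of these 6 genes were also called in each run without 1 library.

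HEMA1 and GUN4 lay on the other side of the threshold from control medium. HEMA1 had 48.4 and 43.9 TPM in hy5 BA against 55.4 and 55.4 TPM in WT BA and was called, at -0.24 ± 0.07 (adjusted p = 0.0208). The adjusted p for HEMA1 was 0.148 without WT BA 2, 0.210 without hy5 BA 2 and 0.297 without both libraries with near-whole counts. GUN4 had 0.889 and 0.953 TPM in hy5 BA against 1.49 and 1.12 TPM in WT BA and was not called, at -0.48 ± 0.25 (adjusted p = 0.177). PORA had 2.01 and 1.53 TPM in hy5 BA against 1.89 and 2.10 TPM in WT BA, and its libraries overlapped between genotypes, with a log2 fold of -0.16 ± 0.18 (adjusted p = 0.589). PORC overlapped too, at 0.541 and 0.857 TPM in hy5 BA against 0.752 and 0.821 TPM in WT BA, with a log2 fold of -0.07 ± 0.28 (adjusted p = 0.897). Neither change of side is a difference between media by test: the interaction of genotype and BA had an adjusted p of 0.697 for HEMA1 and 0.542 for GUN4.

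The third comparison asked what BA changes within each genotype. In WT roots no change with BA was called in the 10 genes: 0 were called by edgeR and 0 by DESeq2 or by limma on TPM. Of all genes, edgeR called 8.2%, 3.88% as higher and 4.33% as lower. An unadjusted p under 0.05 was reached by 0 of the 10 and by 24.1% of all genes. The log2 folds of the 10 genes lay between -0.31 and 0.12, with a median of -0.03, beside 0.009 over all genes. The 95% intervals bound the change for the more abundant genes. HEMA1 lay between -0.08 and 0.22, GUN5 between -0.27 and 0.11, CHLM between -0.17 and 0.20, and CRD1 between -0.31 and 0.33. For PORC the interval was wider, from -0.88 to 0.27, and for GUN4 from -0.76 to 0.20.

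In hy5 roots BA also gave 0 called genes of 10 by edgeR and by limma on TPM, and 1 by DESeq2; edgeR called 11.1% of all genes, 3.11% as higher and 8.01% as lower. The split over all genes depended on the scaling, with 706 higher and 1817 lower by TMM but 1712 higher and 1285 lower by library size only. In hy5, 4 of the 10 genes had an unadjusted p under 0.05, a level that 23.6% of all genes reached. CRD1 had 2.21 and 2.94 TPM in hy5 BA against 1.18 and 1.83 TPM in hy5 Control, a log2 fold of 0.79 ± 0.24 (adjusted p = 0.0593). GUN5 had 0.885 and 0.949 TPM in hy5 BA against 0.565 and 0.789 TPM in hy5 Control, a log2 fold of 0.46 ± 0.15 (adjusted p = 0.0623). CAO had 1.03 and 1.45 TPM in hy5 BA against 0.863 and 0.937 TPM in hy5 Control, a log2 fold of 0.46 ± 0.20 (adjusted p = 0.172). All 3 were higher in both hy5 BA libraries. The fourth, PORA, was lower in both, at 2.01 and 1.53 TPM in hy5 BA against 2.64 and 2.50 TPM in hy5 Control, a log2 fold of -0.53 ± 0.17 (adjusted p = 0.0644). In all, 6 genes lay wholly higher in hy5 BA and 1 wholly lower, compared with 28.6 and 27.3% of all genes.

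CRD1, GUN5 and PORA lay close enough to the threshold for the choice of method or of libraries to decide their call in hy5. CRD1 was called by DESeq2 (adjusted p = 0.0124), with library size only (0.0459), in a fit to the 4 hy5 libraries alone (0.0162), and without WT Control 1 (0.0268), WT Control 2 (0.0320), hy5 Control 2 (0.0320) or hy5 BA 1 (0.0499). GUN5 was called with library size only (0.0260) and without hy5 Control 2 (0.0216). PORA was called in the fit to the 4 hy5 libraries alone (0.0413) and without hy5 BA 1 (0.0404). Without both libraries with near-whole counts none of the 10 genes was called. None of these genes was called for the interaction, which is the BA response of hy5 minus that of WT. edgeR, DESeq2 and limma each called 0 of 10 there, and edgeR called 0.485% of all genes, 0.0485% as positive and 0.436% as negative. By TMM 11 genes were positive and 99 negative for the interaction, and by library size only 22 and 33. At an unadjusted p under 0.05, a level that 13.7% of all genes reached, the interaction held 2 of the 10: GUN5, at 0.54 ± 0.17 (adjusted p = 0.187), and CRD1, at 0.78 ± 0.28 (adjusted p = 0.257). A BA response of these genes that differs between hy5 and WT was therefore not shown. The hy5 Control libraries enter both the BA response in hy5 and the genotype comparison in control medium, so a low value there would move both.

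Several of these enzymes have a paralog, and the balance within a pair was compared as a ratio of TPM in the same library, which needs no scaling between libraries. The balance between the oxidoreductases PORB and PORA lay toward PORA in hy5 and toward PORB in WT. The ratio of PORB to PORA was 0.537 and 0.978 in hy5 BA, 0.319 and 0.422 in hy5 Control, 3.99 and 2.17 in WT BA, and 2.46 and 3.77 in WT Control. The ratio was below 1 in 4 of 4 hy5 libraries and above 1 in 4 of 4 WT libraries. In hy5 BA 2 the genes were about level, with 67 estimated counts for PORA and 62.0 for PORB, so PORA was not shown to exceed PORB there. The mean log2 ratio was -0.96 ± 0.69 in hy5 and 1.58 ± 0.44 in WT (SD, n = 4 each). The difference of -2.54 had p = 0.02857 in a two-sided exact permutation test, the smallest that 70 arrangements allow, and 0.04286 adjusted over 3 pairs. This test took the 4 libraries of a genotype as replicates and ignored medium, and each SD likewise spans both media. The pair was chosen after its values were seen, and the adjustment over 3 pairs does not cover that choice. In hy5 the mean log2 ratio was -0.46 with BA and -1.45 in control medium. The difference between genotypes was -2.02 with BA and -3.05 in control medium, where 2 libraries against 2 cannot reach 0.05. PORA held 39.4 to 64.5% of the summed POR level in hy5 and 18.6 to 28.1% in WT, while that sum was 3.63 to 4.21 TPM in hy5 and 7.48 to 11.2 TPM in WT. PORA and PORB share 1.09 and 1.10% of their 31-base words, so few reads fit both.

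The ratio of the glutamyl-tRNA reductases HEMA1 and HEMA2 was lower in hy5 as well. HEMA2, which is known to be expressed in roots and non-green tissue and to respond little to light, had 47.0 and 40.8 TPM in hy5 BA, 70.2 and 65.3 TPM in hy5 Control, 31.8 and 29.1 TPM in WT BA, and 37.1 and 34.0 TPM in WT Control. It rose in hy5 by a log2 fold of 0.55 ± 0.08 with BA (adjusted p = 9.37e-05) and 0.98 ± 0.08 in control medium (adjusted p = 1.28e-07). In hy5 it was lower with BA, by -0.61 ± 0.08 (adjusted p = 8.54e-05). The mean log2 ratio of HEMA1 to HEMA2 was -0.22 ± 0.34 in hy5 and 0.74 ± 0.17 in WT (SD, n = 4 each), a difference of -0.96 (exact permutation p = 0.02857, adjusted 0.04286). HEMA2 exceeded HEMA1 in both hy5 Control libraries, while HEMA1 exceeded HEMA2 in 4 of 4 WT libraries. In hy5 BA the genes were about level, with ratios of HEMA1 to HEMA2 of 1.03 and 1.08. The interaction of genotype and BA for HEMA2, at -0.43, was not called by edgeR but was by DESeq2 (adjusted p = 0.0385). For CHLI1 and its less abundant paralog CHLI2 the mean log2 ratio was 2.25 ± 0.21 in hy5 and 2.55 ± 0.13 in WT. The difference of -0.31 did not pass (exact permutation p = 0.05714, adjusted 0.05714), and the libraries overlapped. The ratio tests were chosen after the values of these genes were seen. All of them took the libraries of both media together as replicates of a genotype.

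**Figure D3:**
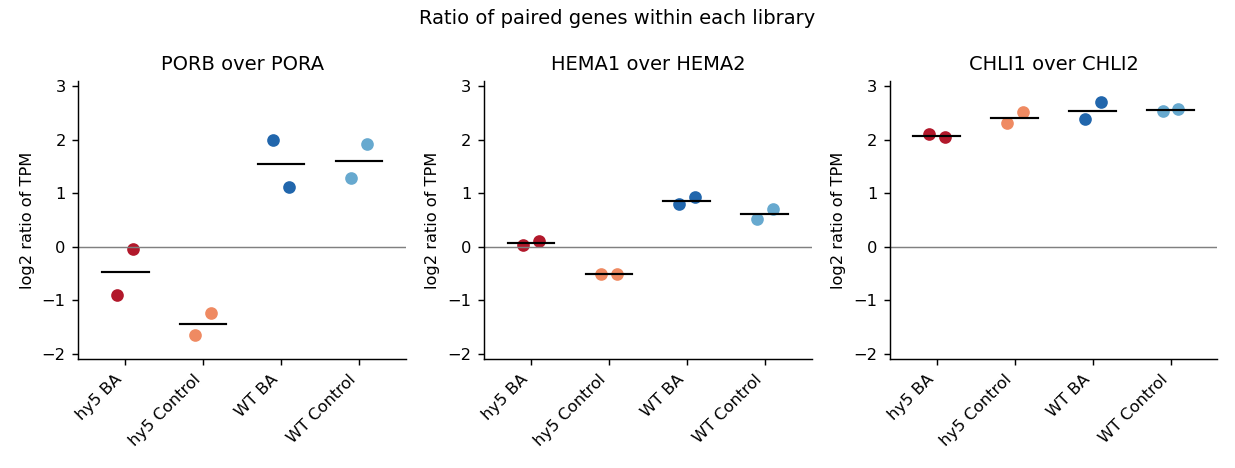
Log2 ratio of TPM within each library (vertical axis) for 3 pairs of paralogs in the 4 groups; points are libraries, bars are group means, and the line at 0 marks equal levels. PORB over PORA lies below 0 in all 4 hy5 libraries and above 0 in all 4 WT libraries, HEMA1 over HEMA2 is below 0 in hy5 Control alone, and CHLI1 over CHLI2 stays above 2 in every library.

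The other genes of the tetrapyrrole pathway were grouped by step. Among 15 other genes of the early steps, from glutamate to protoporphyrin IX, 2 were higher and 3 lower in hy5 Control relative to WT Control, with a median log2 fold of -0.10. That is 33.3% called, beside 25.1% of all genes. The 3 lower calls depended on the method: 6 were lower with library size only, 0 in DESeq2 and 0 without both libraries with near-whole counts. The higher ones were HEMA2 and HEMB2, a gene for a 5-aminolevulinic acid dehydratase, at 0.94 ± 0.17 (adjusted p = 0.000677). The lower ones were small: GSA2 at -0.43 ± 0.14, HEME2 at -0.35 ± 0.11 and HEMF1 at -0.27 ± 0.08. None of these 3 was called without WT Control 2, where their adjusted p-values were 0.387, 0.236 and 0.128 in that order, while HEMF1 alone was called with hy5 Control 1 left out, GSA2 and HEME2 alone with hy5 Control 2 left out, and HEME2 and HEMF1 alone with hy5 BA 1 left out. With BA 2 of the 15 were higher (HEMA2 and HEMB2) and 1 lower (HEMB1, at -0.22 ± 0.07), with a median of -0.14; HEMB2 was not called without WT BA 1 or without hy5 BA 2, and HEMB1 not without WT BA 2, hy5 BA 1 or hy5 BA 2. In this medium 20% of the list was called, beside 23.5% of all genes. DESeq2 called 1 gene higher with BA, and so did the fit without both libraries with near-whole counts, which called 0 lower.

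Among 8 other genes of the chlorophyll branch, 5 were lower and none higher in hy5 Control relative to WT Control, with a median log2 fold of -0.67. With BA 6 were lower and none higher, with a median of -0.42. Among all genes 11.4% were lower in control medium and 12.4% with BA. The count with BA was 2 in DESeq2, 4 in limma on log2(TPM + 0.1) and 2 without both libraries with near-whole counts. The strong falls were at the end of the branch. CHLG, the chlorophyll synthase that joins the phytol tail, had 0.695 and 0.593 TPM in hy5 BA against 6.40 and 5.93 TPM in WT BA, and 0.454 and 0.435 TPM in hy5 Control against 5.21 and 6.31 TPM in WT Control. Its log2 fold was -3.23 ± 0.16 with BA (adjusted p = 7.46e-10) and -3.63 ± 0.18 in control medium (adjusted p = 4.95e-10). CHLP, the geranylgeranyl reductase that makes the phytol group, had 2.18 and 2.19 TPM in hy5 BA against 14.6 and 12.2 TPM in WT BA, and 1.45 and 1.62 TPM in hy5 Control against 11.9 and 14.2 TPM in WT Control. Its log2 fold was -2.59 ± 0.11 with BA (adjusted p = 1.22e-10) and -3.04 ± 0.12 in control medium (adjusted p = 3.16e-11). CHLG and CHLP were called in all 8 runs without 1 library in both media. CHLD, the remaining subunit of magnesium chelatase, fell by only -0.54 ± 0.08 in control medium (adjusted p = 9.33e-05), so within that enzyme GUN5 had the strongest fall and CHLD the weakest of the genes called. LCAA, a partner of CRD1 in the cyclase, fell by -0.80 ± 0.17 in control medium (adjusted p = 0.00211). CHLI2 was called in both media, at -0.68 ± 0.23 with BA and -0.86 ± 0.24 in control medium, but in only 2 and 5 of 8 runs that left out 1 library; in control medium it was lost without WT Control 2, hy5 Control 1 or hy5 Control 2. With BA the count of 6 dropped to 3 without WT BA 1, 4 without WT BA 2, 2 without hy5 BA 1 and 2 without hy5 BA 2.

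Of 8 genes of the heme and bilin branch, which uses the same precursors, 6 could be tested; HO3 and HO4 did not pass the filter. In hy5 Control 1 was lower and none higher, with a median log2 fold of -0.04, and in hy5 BA 2 were lower and none higher, with a median of -0.07. These are 16.7 and 33.3% of the genes tested, close to the 25.1 and 23.5% of all genes called. The count with BA was 1 in DESeq2, in limma on log2(TPM + 1) and without both libraries with near-whole counts. FC1, a ferrochelatase found in roots as well as leaves, fell by -0.43 ± 0.07 with BA (adjusted p = 0.000152) and by -0.47 ± 0.07 in control medium (adjusted p = 4.49e-05). FC2, the other ferrochelatase gene, was called with BA alone, at -0.34 ± 0.10 (adjusted p = 0.0197), and not without any 1 of WT BA 1, WT BA 2, hy5 BA 1 or hy5 BA 2.

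**Figure D4:**
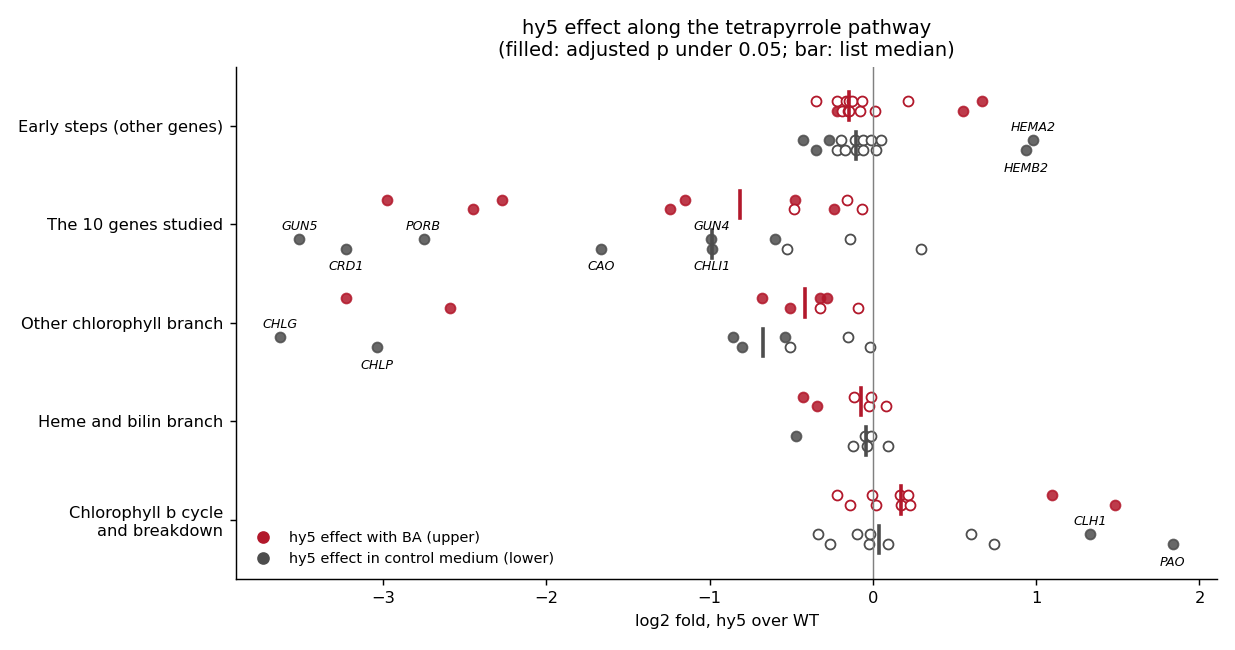
Log2 folds of hy5 over WT (horizontal axis) for genes of 5 steps of the tetrapyrrole pathway, with BA in the upper and control medium in the lower row of each step; filled points had an adjusted p under 0.05 and bars are medians over the genes tested. Folds beyond -1.5 occur in the 10 genes studied and in the other chlorophyll branch genes CHLG and CHLP, while the early steps stay between -0.43 and 0.98.

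Of 10 transcription factors known to act on chlorophyll genes, 9 could be tested, and CGA1 did not pass the filter. In control medium 4 were lower and with BA 3, 44.4 and 33.3% of those tested, beside 25.1 and 23.5% of all genes called. DESeq2 called 3 and 2, and limma 2 with BA. Each of these counts includes HY5 itself, whose fall marks the genotype. HY5, the mutated gene, and HYH, its close relative, were lower in hy5 in both media, HYH by -2.73 ± 0.15 with BA (adjusted p = 2.29e-09) and -3.01 ± 0.16 in control medium (adjusted p = 1.21e-09). GNC, a GATA factor that promotes greening, was near the limit of detection, with 2 and 6 estimated counts in hy5 BA against 11 and 13 in WT BA, and 0 and 0 in hy5 Control against 16 and 13 in WT Control. GNC was called lower in both media, but the call with BA (adjusted p = 0.0449) held in only 1 of 8 runs without 1 library. PIF3, a repressor of chlorophyll genes in darkness, was called lower in control medium alone, at -0.68 ± 0.17 (adjusted p = 0.00657), though not without hy5 Control 2 (0.0588). The Golden2-like activators were not called in either medium: GLK1 had log2 folds of -0.0009 ± 0.40 with BA and 0.21 ± 0.47 in control medium, and GLK2 of -0.01 ± 0.15 and -0.16 ± 0.15. The BA response in WT gave 0 calls in each of these 4 lists. In hy5 BA against hy5 Control, HEMA2 fell and CHLP rose; CHLP by 0.53 ± 0.15 (adjusted p = 0.0283), and no other gene of the 4 lists was called. That call of CHLP was lost in DESeq2, in limma on TPM and without any 1 of the 4 hy5 libraries, where the highest adjusted p was 0.229.

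The 10 genes have 23 annotated transcripts in the tables. HEMA1, GUN4 and CHLI1 have 1 each, GUN5, CRD1, PORA, PORB and PORC 2, CAO 4 and CHLM 6. For GUN5, transcript AT5G13630.1 held 50.68 to 70.57% of the gene's TPM over the 8 libraries. CHLM was spread over more forms, with AT4G25080.4 at 43.04 to 57.36% and AT4G25080.1 at 0 in all libraries. AT1G44446.4 led CAO at 64.12 to 83.15%, AT3G56940.1 led CRD1 with at least 71.18% and AT5G54190.1 led PORA with at least 73.7%. For PORB and PORC the estimate swung between libraries, AT4G27440.1 from 31.43% to all of the gene's TPM and AT1G03630.1 from 23.08% to all of it. With levels of a few TPM and no error estimate for the split, no difference in isoforms was tested.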

How the data were processed

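Each of 8 libraries had 1 deposited table of transcripts with TPM, estimated count and 2 length columns. The authors' estimated counts come from Salmon and TAIR10, per the submitters' processing notes; the sources used here do not give version, options or strand setting. TPM was computed by the authors, per the file headers, and served here for levels. RNA was selected with oligo-dT and cDNA primed at random, per the labels' protocols. Groups and replicate numbers came from the sample titles.

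Estimated counts were summed per locus and rounded. With edgeR 4.0.16 in R 4.3.3, filterByExpr (minimum count 10) kept 22682 genes and removed 4946, libraries were scaled by TMM, and a robust quasi-likelihood fit took all 8 libraries as 4 group means (4 residual degrees of freedom). Benjamini-Hochberg adjustment ran over all tested genes, with calls under 0.05; all tests were two-sided. Standard errors came from the fold and its F statistic. Alternatives used DESeq2 1.42.0, limma 3.58.1, other scalings, no filter, an effective length offset, a replicate block and left-out libraries; a group left with 1 library was assumed to vary like the others. Both libraries of each group differed by more than sampling noise (chi-square per gene 3.90 to 7.94, where noise gives about 1). The same-numbered libraries did not deviate together.

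The members and gene lists, which include the 9 shoot and 11 root markers, were chosen with earlier results of these data known. Named were all 10 members and, of each other list, up to 4 called genes with the smallest p; GLK1, GLK2 and genes whose calls were lost were added after their values were seen. Coordinates, upstream sequence and overlaps came from RefSeq's TAIR10.1, whose transcript lengths equalled the deposited ones for 99.16% of 48332 transcripts and for all 23 of the members. The steps were tested on simulated data.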

Additional observations from a re-analysis of the deposited data

How the results depend on the processing

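Over 18 alternatives a comparison (17 for the interaction), the member folds gave 870 values on the same side of the threshold, 13 that passed it anew, 7 that no longer did and none that reversed a called fold. The number of members called for the BA response in hy5, 0 of 10, became 2 with library size only, 1 with DESeq2, 1 with the replicate block, where CRD1 had an adjusted p of 0.0387, and 2 in a fit to the 4 libraries compared. The replicate block changed no other call of a member, and the replicate numbers do not pair the libraries, since the deviations of same-numbered libraries correlated between -0.068 and 0.024. Without 1 library the members called ranged from 0 to 2 for the BA response in hy5, 0 to 0 in WT and for the interaction, and 6 to 7 for the hy5 effect in either medium. Over all genes the calls without 1 library ranged from 1088 to 2867 for the BA response in hy5, 841 to 2220 in WT, 6 to 331 for the interaction, 3685 to 5860 between the genotypes in control medium and 3366 to 5658 with BA. Interaction calls over all genes, 110, were 55 with library size only, 316 in DESeq2, and 1 and 0 in limma with pseudocounts of 1 and 0.1. Those limma fits called 1187 and 1177 genes for the BA response in WT, against 1861 by edgeR. Without both libraries with near-whole counts, 585 genes were called for the BA response in hy5, 3430 between the genotypes in control medium, 2998 with BA and 6 for the interaction; fewer samples enter that fit. The cause of the other changes was not tested. Without 1 library the hy5 minus WT difference of log2 ratios ranged from -2.84 to -2.31 for PORB over PORA, -1.07 to -0.86 for HEMA1 over HEMA2 and -0.40 to -0.24 for CHLI1 over CHLI2. Depth limits GUN4 and PORC most, whose lowest estimated counts were 25.5 and 26.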

Other observations

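Chlorophyll breakdown was not described above. Of 10 genes of the chlorophyll b cycle and of breakdown, 2 were higher and none lower in hy5 than in WT in each medium, with a median log2 fold of 0.17 with BA and 0.04 in control medium. That is 20% of the list in each medium, below the 23.5% of all genes called with BA and the 25.1% in control medium. With BA the count was 1 in DESeq2, in both limma fits and in the fit to the 4 libraries compared, and in control medium it was 1 in limma on log2(TPM + 0.1). PAO, the pheophorbide a oxygenase that opens the chlorophyll ring, had 12.5 and 13.1 TPM in hy5 BA against 5.13 and 4.22 TPM in WT BA, and 13.5 and 17.0 TPM in hy5 Control against 4.46 and 4.38 TPM in WT Control. PAO rose by a log2 fold of 1.48 ± 0.12 with BA (adjusted p = 1.97e-07) and 1.84 ± 0.12 in control medium (adjusted p = 1.11e-08), and kept its call in all 8 runs without 1 library. CLH1, a chlorophyllase, was higher by 1.09 ± 0.36 with BA (adjusted p = 0.0421) and 1.33 ± 0.34 in control medium (adjusted p = 0.0110). CLH1 was called in 2 of 8 runs without 1 library with BA and in 4 of 8 in control medium, where it was lost without any 1 of WT Control 1, WT Control 2, hy5 Control 1 or hy5 Control 2, with a highest adjusted p of 0.0750. BA called 0 of the 10 breakdown genes in hy5 and 0 in WT.

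Each member was also compared with the mean of the 10 members' standardised log2 CPM over the 8 libraries, as a description, since the points share genotype and library. Each member is itself part of that mean, so part of its correlation is fixed in advance. Pearson's r was 0.92 to 0.99 for GUN4, GUN5, CHLI1, CHLM, CRD1, PORB and CAO, 0.86 for HEMA1, 0.64 for PORC and -0.16 for PORA. Among 18638 genes searched outside the lists, the 5 with the highest r were RPP13 (0.9986), SVR3 (0.9983), AT1G63240 (0.9972), VTC2 (0.9964) and EXT13 (0.9959). SVR3 averaged 19.8 TPM in hy5 BA and 19.1 TPM in hy5 Control, against 31.7 TPM in WT BA and 34.5 TPM in WT Control. EXT13 averaged 17.1 TPM in hy5 BA and 17.8 TPM in hy5 Control, against 44.3 TPM in WT BA and 50.5 TPM in WT Control.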
